A study of Homo sapiens with 9 samples.

Results

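The 9 genes of MHC class I antigen presentation were followed by name in A375 melanoma cells treated with TP-472. They were 4 heavy chain genes (HLA-B, HLA-C, HLA-E and HLA-F), the light chain B2M, the peptide transporter subunits TAP1 and TAP2, the loading protein tapasin (TAPBP) and the transcriptional activator NLRC5. The names were taken from a list of class I, peptide loading and regulator genes that was drawn up with earlier results of these data known, and the rule itself used no measured value. The 9 genes were among 26475 gene symbols in the count table, and all 9 were among the 16417 genes with enough counts to be tested. A375 is an established human BRAF-mutant melanoma cell line, and TP-472 is a small molecule that inhibits the bromodomains of BRD9 and BRD7, readers of acetylated histones. RNA was sequenced after 24 h in control cells given the vehicle DMSO, in cells given 5 µM TP-472 and in cells given 10 µM TP-472, with 3 libraries in each group. All 3 groups were the same line, the replicates were described as biological, and no melanocyte or other melanoma line was sequenced, so the values describe 1 cultured line.

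Class I molecules display short peptides from the cell's own proteins on its surface, where CD8 T cells and natural killer cells read them. Peptides are cut by the proteasome, carried into the endoplasmic reticulum by the TAP1 and TAP2 transporter, held near the empty heavy chain by tapasin and its partners, and fixed in place once heavy chain and B2M have folded together. Transcription of these genes is driven by NLRC5, by RFX, CREB and NF-Y factors on a shared promoter module, by NF-κB and by interferon regulatory factors. Loss of this machinery is known in melanoma as a route by which tumor cells escape T cells.

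At the dose of 10 µM, 1 of the 9 genes was upregulated and 1 was downregulated, beside 16.4% and 18.0% of all tested genes. TAPBP fell by 44.6% (log2 fold change -0.85 ± 0.07, standard error) and TAP1 rose by 27.6% (0.35 ± 0.09). At 5 µM TAPBP was the only one of the 9 to pass in the main fit, and it fell by 24.6% (-0.41 ± 0.07). Of all tested genes 5.81% passed downward at that dose. Neither the heavy chains, B2M, TAP2 nor NLRC5 passed at either dose in the main fit of all 9 libraries. HLA-B and B2M moved with a single library, 10 µM replicate 1, and passed downward at 10 µM in the fit without it. In that fit 25.8% of all genes tested passed downward at 10 µM. At 5 µM, B2M then also passed downward and TAP1 upward, beside 17.6% and 16.5% of all genes tested. With all 9 libraries and trends with transcript length and GC content removed, B2M also passed downward at 10 µM (-0.25 ± 0.08), as did 2995 of 15323 genes. B2M and HLA-E passed downward at 5 µM when only the DMSO and 5 µM libraries were fitted. In that fit 3280 genes passed downward, against 954 in the main fit.

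Sequence near the starts of HLA-B, B2M, TAP1 and TAPBP is shown, since the results turn on the levels of these 4 genes and factors of this kind act near gene starts. The sequences are from RefSeq (GRCh38.p14), 5′ to 3′ on the strand of the gene, and capitals mark matches to any of 4 motifs searched on both strands. The motifs were AANNGAAA (an interferon regulatory factor element), GGGNN followed by TNNCC (a κB-like element), TGACG (a CRE-like element) and CCAAT (the NF-Y box). For HLA-B and B2M the bases upstream of both the RefSeq and the GENCODE start are shown, and for TAP1 and TAPBP 30 bases around the interferon regulatory factor elements and around the κB-like element upstream of the RefSeq start. The TAP1 and TAPBP stretches lie upstream of the RefSeq start used here but downstream of the start of the GENCODE principal transcript.
HLA-B (chr6:31357188-31357429, minus strand): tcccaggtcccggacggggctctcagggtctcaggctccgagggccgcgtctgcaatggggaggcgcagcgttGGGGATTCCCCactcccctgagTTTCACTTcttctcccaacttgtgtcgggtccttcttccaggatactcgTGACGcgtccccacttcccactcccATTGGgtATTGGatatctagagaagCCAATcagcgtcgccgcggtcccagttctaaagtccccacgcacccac
B2M (chr15:44711267-44711486, plus strand): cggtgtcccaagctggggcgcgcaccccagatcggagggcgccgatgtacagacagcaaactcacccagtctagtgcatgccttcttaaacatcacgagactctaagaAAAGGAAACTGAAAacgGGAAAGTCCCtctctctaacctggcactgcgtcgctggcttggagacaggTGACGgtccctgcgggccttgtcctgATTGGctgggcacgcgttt
TAP1 first stretch (chr6:32853817-32853846, minus strand): gcggccgcTTTCGATTTCGCTTtcccctaa
TAP1 second stretch (chr6:32853757-32853786, minus strand): gcctgttcctGGGACTTTCCgagagccccg
TAPBP first stretch (chr6:33314115-33314144, minus strand): taaccagagcGGGGATTTCCaccgcccctc
TAPBP second stretch (chr6:33314079-33314108, minus strand): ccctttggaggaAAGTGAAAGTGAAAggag
Windows were listed for 7 of the 9 genes, all but HLA-E and NLRC5, each running from 250 bases before to 50 bases after the RefSeq start. HLA-B, HLA-C and B2M each held all 4 motifs. TAP1 held 3 of them and lacked a TGACG match, and its CCAAT match at -249 to -245 and a further κB-like match at 22 to 31 are not shown, while TAPBP held 2, a pair of overlapping interferon regulatory factor elements at positions -18 to -5 and a κB-like element at -56 to -47, with the start base counted as 0. HLA-F and TAP2 also held 2 each. Over all 35116 listed windows of 300 bases, 22.8% held AANNGAAA, 22.0% the κB-like element, 24.6% TGACG and 34.6% CCAAT. The motifs were chosen with these windows in view, some matches overlap each other, and a match is a run of letters, not a measured binding site.

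In the GRCh38 annotation of GENCODE 29, 7 of the 9 genes lie in the MHC region of chromosome 6. The principal transcripts are those of HLA-F (chr6:29723279-29727296, plus strand), HLA-E (chr6:30489467-30494205, plus), HLA-C (chr6:31268749-31272086, minus), HLA-B (chr6:31353872-31357187, minus), TAP2 (chr6:32821833-32838727, minus), TAP1 (chr6:32845209-32853978, minus) and TAPBP (chr6:33303573-33314212, minus). B2M is at chr15:44711487-44718877 on the plus strand and NLRC5 at chr16:56989498-57083524 on the plus strand. All values are gene-level sums over exons. Some of these genes share sequence in this annotation, which can limit how well their reads are told apart. Whether the deposited counts used the same gene models was not examined. Of the 50-base windows of each principal transcript, 6.79% in HLA-C, 5.13% in HLA-E, 2.54% in HLA-B and 1.70% in HLA-F also occur in another annotated gene, and in TAP2 80.2% do, through a read-through gene model on the same strand. TAPBP, B2M and NLRC5 share none. Opposite-strand genes overlap 47.5% of the principal transcript of HLA-F, 24.0% of that of HLA-B and 15.4% of that of TAP1, and the sources used here do not say whether counting used strand.

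Each library held between 42483091 and 51298130 expected counts. Ribosomal RNA genes took 8.20% to 19.9% of a library. The 10 µM replicate 1 library stood apart from its group: a trend with the length and GC content of transcripts explained 11.03% of the variance in its deviation from the rest of the group, against 5.01% and 5.26% for the other 10 µM libraries and at most 0.474% for any DMSO or 5 µM library. The melanocyte lineage and melanoma markers summed to between 443 and 525 CPM, a gene's counts scaled to a common library size, in every library, mostly from SOX10, whereas TYR was at 0 in all 9 libraries and DCT at 0 in all but 1. The immune markers summed to at most 2.97 CPM, with CD3E at 0 throughout, the endothelial markers to at most 3.70 CPM, the fibroblast markers to at most 7.14 CPM and the epithelial markers to at most 10.6 CPM. In bulk RNA fewer cells with a transcript and less transcript per cell cannot be told apart.

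Levels below are CPM scaled by TMM, the trimmed mean of M values, which removes differences in library size and composition. Fold changes are on the log2 scale with their standard errors, from one edgeR quasi-likelihood fit of all 9 libraries, and a gene passed at a Benjamini-Hochberg adjusted p under 0.05 over the 16417 genes. At 5 µM against DMSO, none of the 9 genes passed upward and 1 passed downward, beside 4.40% and 5.81% of all tested genes. At 10 µM against DMSO, 1 passed in each direction, beside 16.4% and 18.0% of all tested genes. Asking also for a fold change of at least 1.5 left TAPBP downward and none upward, beside 10.5% and 8.57% of all tested genes. Between 10 µM and 5 µM, none passed upward and 1, TAPBP, passed downward, beside 2.87% and 5.53%. The median log2 fold change of the 9 genes was -0.02 at 5 µM and -0.03 at 10 µM, next to 0.01 at both doses over all tested genes. Both TP-472 groups were compared with the same DMSO libraries.

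**Figure D1:**
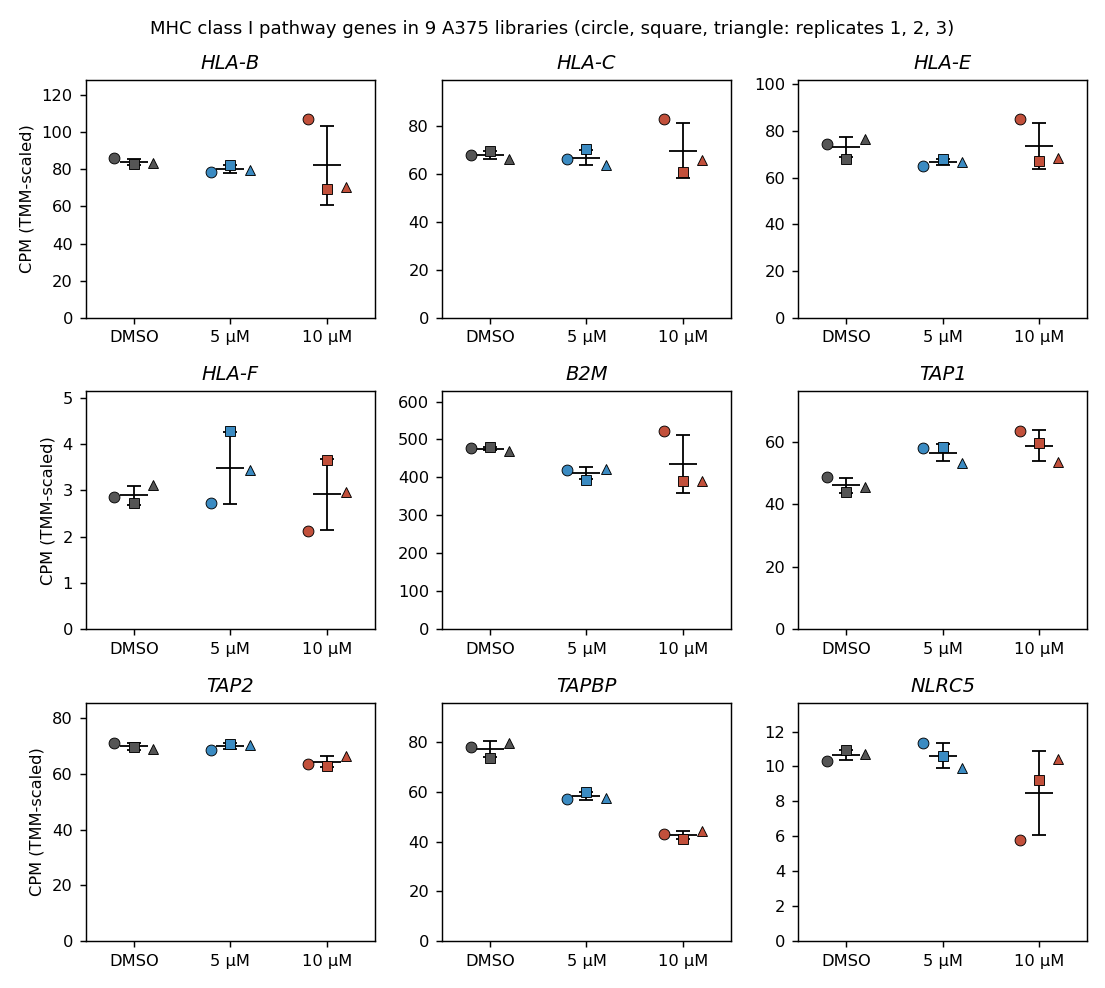
CPM (TMM-scaled, vertical axis from 0) of each of the 9 genes in each library, by group on the horizontal axis, with replicates 1, 2 and 3 as circle, square and triangle and black bars for the group mean ± SD (n = 3). TAPBP falls in steps from 77.2 to 58.2 to 42.7 CPM, and TAP1 rises from 46.1 to 56.6 and 58.9 CPM. The 10 µM circle lies well above the square and triangle for HLA-B, HLA-C, HLA-E and B2M, and below them for HLA-F and NLRC5.

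Compared per kilobase of the principal transcript, B2M was the most abundant of the 9 in DMSO at 279 ± 2.70 CPM per kb (SD, n = 3). HLA-B followed at 54.3 ± 1.06, HLA-C at 44.2 ± 1.09 and TAPBP at 40.9 ± 1.70 CPM per kb. HLA-E (28.1 ± 1.68) and TAP2 (28.01 ± 0.500) did not differ beyond their spread, and TAP1 was lower at 15.6 ± 0.793. HLA-F (1.77 ± 0.126) and NLRC5 (1.56 ± 0.0445) were near the bottom of the order. At 10 µM TAPBP, at 22.6 ± 0.871 CPM per kb, stood below TAP2 at 25.7 ± 0.801, whereas in DMSO it had stood above TAP2 and HLA-E.

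The heavy chain genes encode the chain that binds the peptide. HLA-B, a classical heavy chain that presents to CD8 T cells, measured 85.9, 83.0 and 83.2 CPM in DMSO, 78.3, 82.3 and 79.4 CPM at 5 µM, and 106.9, 69.1 and 70.4 CPM at 10 µM. The 5 µM libraries lay just below the DMSO libraries, whereas 10 µM replicate 1 was above all 6 others and 10 µM replicates 2 and 3 were below them. With all 9 libraries the log2 fold change was -0.07 ± 0.15 at 5 µM (adjusted p = 0.837) and -0.03 ± 0.15 at 10 µM (adjusted p = 0.889), with a 95% interval of -0.36 to 0.29 at the higher dose. Without 10 µM replicate 1 it was -0.27 ± 0.05 at 10 µM (adjusted p = 0.000220), and 10 µM was also lower than 5 µM, by -0.20 ± 0.05 (adjusted p = 0.00643).

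HLA-C, the other classical heavy chain here and a ligand of natural killer cell receptors, measured 68.0, 69.4 and 66.1 CPM in DMSO, 66.2, 70.3 and 63.9 at 5 µM, and 82.7, 60.7 and 65.9 at 10 µM. Its groups overlapped at both doses, and the log2 fold changes were -0.02 ± 0.11 and 0.04 ± 0.11 (adjusted p = 0.936 and 0.816). HLA-E, which carries leader peptides of other class I chains to the NKG2A receptor, measured 74.6, 68.1 and 76.4 CPM in DMSO, 65.2, 68.1 and 66.9 at 5 µM, and 85.0, 67.2 and 68.5 at 10 µM. Its log2 fold changes were -0.13 ± 0.10 and 0.01 ± 0.10 (adjusted p = 0.491 and 0.949). HLA-F, a nonclassical chain, was counted at only 103 to 221 expected counts per library, and its level ranged from 2.13 to 4.28 CPM with overlapping groups at both doses (adjusted p = 0.587 and 0.985). Both HLA-C and HLA-E were higher in 10 µM replicate 1 than in any other library, and without that library neither passed at 10 µM (-0.10 ± 0.06, adjusted p = 0.155, and -0.11 ± 0.06, adjusted p = 0.128).

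Because reads shared among the heavy chains may be divided differently between them, their counts were also summed. The 4 genes together reached 231, 223 and 229 CPM in DMSO, 212, 225 and 214 CPM at 5 µM, and 277, 201 and 208 CPM at 10 µM. The sum at 10 µM, 228 ± 41.99 CPM (SD, n = 3), had the same mean as in DMSO, 228 ± 4.19 CPM, but a spread that came from replicate 1. The log2 ratio to DMSO was -0.07 at 5 µM and -0.01 at 10 µM, and it was -0.16 at 10 µM without replicate 1.

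B2M, the invariant light chain without which class I molecules do not reach the surface, measured 478, 479 and 471 CPM in DMSO, 419, 392 and 421 at 5 µM, and 522, 392 and 391 at 10 µM. Every 5 µM library lay below every DMSO library. At 10 µM replicates 2 and 3 lay below DMSO and replicate 1 above it. The log2 fold change was -0.21 ± 0.11 at 5 µM (adjusted p = 0.268) and -0.13 ± 0.11 at 10 µM (adjusted p = 0.390). In the fit without 10 µM replicate 1 it was -0.21 ± 0.03 at 5 µM (adjusted p = 9.92e-05) and -0.29 ± 0.04 at 10 µM (adjusted p = 8.29e-06), and with the length and GC trend of each library removed it was -0.25 ± 0.08 at 10 µM (adjusted p = 0.0283). At 5 µM the estimate without replicate 1 was thus as with all libraries, and the standard error was 0.03 in place of 0.11. The difference between the doses did not pass in either fit, at 0.08 ± 0.11 (adjusted p = 0.680) with all libraries and -0.07 ± 0.04 (adjusted p = 0.164) without replicate 1.

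TAPBP, which bridges the empty heavy chain to the transporter and favors high-affinity peptides, measured 78.0, 73.6 and 79.9 CPM in DMSO, 57.0, 60.0 and 57.5 at 5 µM, and 43.2, 40.9 and 44.1 at 10 µM. No library of one group overlapped those of another, and the level was lower at the higher dose. The change was -0.41 ± 0.07 at 5 µM (95% interval -0.56 to -0.25, adjusted p = 0.00605) and -0.85 ± 0.07 at 10 µM (-1.01 to -0.69, adjusted p = 1.86e-05). Between the doses it was -0.44 ± 0.07 (adjusted p = 0.00506). Replicate 1 at 10 µM lay 0.02 log2 units above the mean of the other two, and without it the change at 10 µM was -0.86 ± 0.06 (adjusted p = 7.90e-09). TAPBP counts, like those of B2M and NLRC5, were whole numbers in all 9 libraries, whereas those of the heavy chains and TAP1 were not.

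TAP1, one half-transporter of the peptide pump, measured 48.7, 44.1 and 45.6 CPM in DMSO, 58.0, 58.5 and 53.4 at 5 µM, and 63.5, 59.6 and 53.5 at 10 µM. Both treated groups lay above all DMSO libraries and overlapped each other. At 5 µM the increase of 0.30 ± 0.09 did not pass (adjusted p = 0.0592), and at 10 µM the increase of 0.35 ± 0.09 passed (95% interval 0.16 to 0.55, adjusted p = 0.0110). The difference between the doses was 0.06 ± 0.09 (-0.14 to 0.25, adjusted p = 0.731). Leaving out 10 µM replicate 1, TAP1 passed at both doses, at 0.30 ± 0.06 (adjusted p = 0.00126) and 0.29 ± 0.07 (adjusted p = 0.00188). Leaving out DMSO replicate 2 or DMSO replicate 3 ended the call at 10 µM (0.32 and 0.34, adjusted p = 0.0613 and 0.0518).

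TAP2, the other half-transporter, measured 71.3, 69.8 and 68.8 CPM in DMSO, 68.7, 70.6 and 70.5 at 5 µM, and 63.5, 62.8 and 66.6 at 10 µM. The 10 µM libraries lay below the other 6. The change was 0.00 ± 0.07 at 5 µM (adjusted p = 1.00) and -0.12 ± 0.07 at 10 µM (95% interval -0.27 to 0.02, adjusted p = 0.181), so the TAP2 values were on the opposite side of DMSO from TAP1 at 10 µM without passing the test.

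NLRC5, the activator that binds class I promoters, measured 10.3, 10.9 and 10.7 CPM in DMSO, 11.4, 10.6 and 9.92 at 5 µM, and 5.78, 9.23 and 10.4 at 10 µM. Only 10 µM replicate 1 was far from the rest. The change was -0.00 ± 0.19 at 5 µM (adjusted p = 0.995) and -0.33 ± 0.19 at 10 µM (95% interval -0.75 to 0.09, adjusted p = 0.210), and -0.12 ± 0.11 at 10 µM without replicate 1 (adjusted p = 0.416). Over the 19 alternatives NLRC5 ranged from -0.50 to -0.07 at 10 µM and passed in none. In that one library NLRC5 and HLA-F were at their lowest while HLA-B, HLA-C, HLA-E and B2M were at their highest. A trend with length and GC explained 11.03% of the variance there, and the principal transcript of NLRC5 is the longest of the 9, at 6822 bases. That of HLA-F, also at its lowest there, has 1635 bases, and that of HLA-E, at its highest there, has 2601. Any link between these values was not tested.

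Of the 9 genes, 1 had every 5 µM library above every DMSO library (TAP1) and 3 had every one below (HLA-B, B2M and TAPBP), beside 23.7% and 25.0% of all tested genes. At 10 µM the counts were 1 above (TAP1) and 2 below (TAP2 and TAPBP), beside 23.4% and 26.0%.

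**Figure D2:**
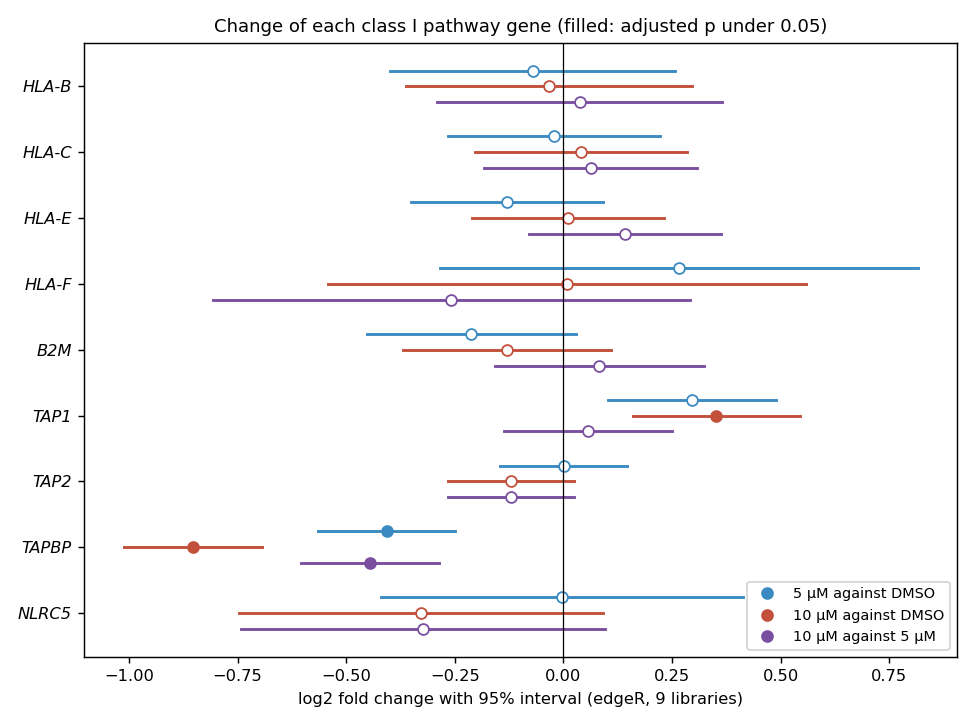
Log2 fold change (horizontal axis) of each of the 9 genes with its 95% interval from the edgeR fit of 9 libraries, for each dose against DMSO and for the higher dose against the lower. Filled points passed at an adjusted p under 0.05, which TAPBP did in all 3 comparisons and TAP1 only at 10 µM against DMSO.

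The distance of 10 µM replicate 1 from the mean of replicates 2 and 3, on the log2 scale, was 0.62 for HLA-B, 0.42 for B2M, 0.39 for HLA-C and 0.32 for HLA-E. It was -0.76 for NLRC5 and -0.63 for HLA-F, and no more than 0.17 in size for TAP1, TAP2 and TAPBP. By size among all tested genes, the distance stood at percentile 67.3 for HLA-B, 50.2 for B2M, 47.1 for HLA-C and 40.1 for HLA-E. HLA-F stood at 68.2, NLRC5 at 76.3, TAP1 at 21.7, TAP2 at 3.24 and TAPBP at 3.02. Larger distances than those of the 9 genes were thus common in this library. Without this library, 1 gene passed upward and 3 downward at 10 µM (TAP1; HLA-B, B2M and TAPBP), and 1 upward and 2 downward at 5 µM (TAP1; B2M and TAPBP). Of the 16745 genes tested in that fit, 23.0% passed upward and 25.8% downward at 10 µM, and 16.5% and 17.6% at 5 µM, so more genes passed in both directions than with all 9 libraries. With the length and GC trend removed from each library instead, the changes at 10 µM were -0.12 ± 0.07 (adjusted p = 0.181) for HLA-B, -0.25 ± 0.08 (adjusted p = 0.0283) for B2M, 0.42 ± 0.07 (adjusted p = 0.000551) for TAP1 and -0.87 ± 0.08 (adjusted p = 1.25e-05) for TAPBP.

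**Figure D3:**
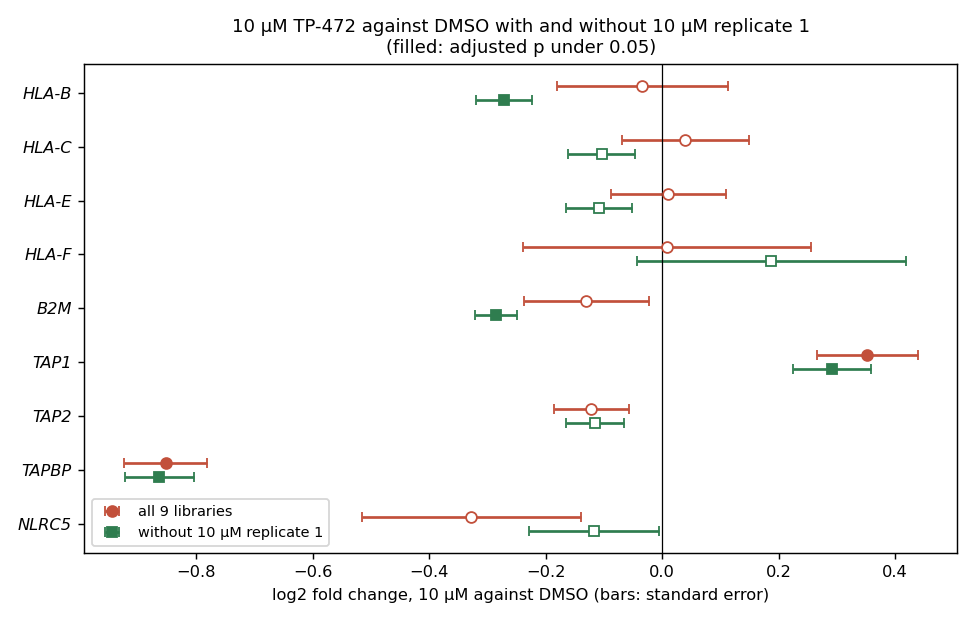
Log2 fold change at 10 µM against DMSO (horizontal axis, bars ± standard error) for each of the 9 genes, with all 9 libraries (circles) and without 10 µM replicate 1 (squares). Filled symbols passed at an adjusted p under 0.05: HLA-B moves from -0.03 to -0.27 and B2M from -0.13 to -0.29, whereas TAPBP stays at -0.85 and -0.86.

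The partners that fold heavy chains and trim peptides in the endoplasmic reticulum were followed in a list of 8 genes. None passed at 5 µM, and at 10 µM 2 fell and none rose, beside 18.0% of all tested genes lower, with a list median of -0.23 at 10 µM. ERAP1, the aminopeptidase that trims peptides to length, measured 104.2, 103.4 and 102.6 CPM in DMSO, 82.7, 82.1 and 76.2 at 5 µM, and 36.9, 60.7 and 64.4 at 10 µM. The groups did not overlap, and the change at 10 µM was -0.94 ± 0.17 (adjusted p = 0.00231), or -0.73 ± 0.05 without replicate 1. PDIA3, the disulfide isomerase joined to tapasin in the loading complex, fell at 10 µM by 0.25 ± 0.06 on the log2 scale (adjusted p = 0.0133). UGGT1, which checks the folding of glycoproteins, and CALR, the chaperone calreticulin, were next by p value and did not pass, at -0.36 ± 0.14 and 0.22 ± 0.09 (adjusted p = 0.0762 and 0.0911). Without 10 µM replicate 1 the list had 1 gene upward and 3 downward at 5 µM, beside 16.5% and 17.6% of all genes tested. At 10 µM it then had 1 upward and 4 downward, beside 23.0% and 25.8%, and UGGT1 measured -0.19.

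A list of 5 genes covered the immunoproteasome subunits PSMB8, PSMB9 and PSMB10, which replace the standard catalytic subunits, and the PA28 activator subunits PSME1 and PSME2. None passed at 5 µM, and at 10 µM only PSME1 passed, at -0.38 ± 0.13 (adjusted p = 0.0473), beside 18.0% of all tested genes lower. PSMB8 measured -0.26 ± 0.10, PSMB9 -0.34 ± 0.16, PSME2 -0.08 ± 0.14 and PSMB10 0.25 ± 0.16 at 10 µM (adjusted p from 0.0717 to 0.722). Without 10 µM replicate 1, PSMB9 and PSME1 fell at 5 µM (-0.23 and -0.26), beside 17.6% of all genes tested lower. At 10 µM 4 of the 5 fell in that fit, all but PSMB10, beside 25.8% of all genes tested lower. Their log2 fold changes ran from -0.58 for PSMB9 to -0.30 for PSME2. The standard subunits PSMB5, PSMB6 and PSMB7 and the activator PSME3 were above 0 at both doses, as was PSMB10. In this list of 4, 1 passed upward at 5 µM and 2 at 10 µM, beside 4.40% and 16.4% of all tested genes. PSMB6 rose at 10 µM by 0.56 ± 0.15 (adjusted p = 0.0177), PSME3 rose at both doses by 0.30 ± 0.06 and 0.28 ± 0.06 (adjusted p = 0.0143 and 0.00666), and PSMB5 and PSMB7 measured 0.33 ± 0.13 and 0.49 ± 0.19 at 10 µM without passing (adjusted p = 0.0755 and 0.0668). All 4 passed upward at 10 µM without replicate 1, beside 23.0% of all genes tested in that fit. The changes were smaller in PSMB6 (0.32), PSMB7 (0.18) and PSMB5 (0.14), and the list median went from 0.41 to 0.25. The immunoproteasome and standard sets were not tested against each other.

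Factors that bind class I promoters were followed in a list of 10 genes. RFX5, the DNA-binding subunit of the RFX complex, rose at 5 µM, from 99.2 ± 5.16 to 123.8 ± 0.915 CPM (SD, n = 3; log2 fold change 0.32 ± 0.08, adjusted p = 0.0310), and measured 101.3 ± 8.26 CPM at 10 µM. CREB1 and the NF-Y subunit NFYB fell at 10 µM, by 0.46 ± 0.10 and 0.38 ± 0.11 on the log2 scale (adjusted p = 0.00642 and 0.0192). NFYC and NFKB1 were next by p value and did not pass, at 0.26 ± 0.12 and -0.14 ± 0.07 (adjusted p = 0.124 and 0.159). The counts were 1 upward and none downward at 5 µM, and none upward and 2 downward at 10 µM, beside 4.40% and 18.0% of all tested genes in those directions, with a list median of -0.01 at 10 µM. Without 10 µM replicate 1, RFXAP, NFYB and CREB1 also passed downward at 5 µM (-0.34, -0.26 and -0.22), when 17.6% of all genes tested did.

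Interferon gamma is the main inducer of class I genes, and 8 genes of its signaling were followed. IFNGR2, the signaling subunit of its receptor, measured 67.0, 69.6 and 70.5 CPM in DMSO, 47.0, 48.1 and 45.2 at 5 µM, and 40.7, 40.7 and 35.5 at 10 µM. It fell at both doses, by 0.56 ± 0.08 and 0.83 ± 0.08 on the log2 scale (adjusted p = 0.00189 and 4.69e-05). IRF1, a transcriptional activator of class I genes, fell at 5 µM by 0.48 ± 0.09 (adjusted p = 0.00831), measured -0.15 ± 0.09 at 10 µM (adjusted p = 0.229), and was higher at 10 µM than at 5 µM by 0.33 ± 0.09 (adjusted p = 0.0484). IRF2 fell at 10 µM by 0.32 ± 0.10 (adjusted p = 0.0321). IFNGR1, the ligand-binding receptor subunit, measured 0.30 ± 0.11 at 10 µM (adjusted p = 0.0538), and SOCS1, a feedback inhibitor, 1.53 ± 0.58 (adjusted p = 0.0664) at levels of no more than 2.38 CPM in any library. The list had none upward and 2 downward at each dose, beside 5.81% and 18.0% of all tested genes lower. Without 10 µM replicate 1 it had 1 upward and 2 downward at 5 µM, beside 16.5% and 17.6% of all genes tested. At 10 µM the list then had 2 upward and 3 downward, beside 23.0% and 25.8%. The upward calls in that fit were JAK2, a kinase bound to the receptor, at both doses (0.37 ± 0.09 and 0.66 ± 0.10, adjusted p = 0.00376 and 3.40e-05), and IFNGR1 at 10 µM (0.35 ± 0.10, adjusted p = 0.00946). SOCS1 measured 0.84 ± 0.61 at 10 µM in that fit (adjusted p = 0.282).

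MHC class II genes, which present peptides from outside the cell and are also expressed by many melanomas, were followed in a list of 13. At 5 µM 5 rose and at 10 µM 9 rose and none fell, beside 4.40% and 16.4% of all tested genes higher. The list median was 0.71 at 5 µM and 0.63 at 10 µM. CIITA, the class II counterpart of NLRC5, measured 14.1, 15.3 and 16.7 CPM in DMSO, 39.2, 40.4 and 39.3 at 5 µM, and 26.4, 32.8 and 34.9 at 10 µM. It rose by 1.37 ± 0.11 and 1.03 ± 0.11 (adjusted p = 9.34e-05 and 0.000106). HLA-DMB, a subunit of the class II peptide editor, rose by 1.24 ± 0.14 and 1.27 ± 0.14 (adjusted p = 0.000512 and 9.33e-05). HLA-DOA, a subunit of the protein that restrains that editor, rose from 1.88 CPM in DMSO to 5.81 and 3.98 CPM (1.63 ± 0.23 and 1.08 ± 0.23, adjusted p = 0.00202 and 0.00513). HLA-DRB1, a beta chain of the class II molecule DR with near-identical copies in the genome, measured 0.50 ± 0.16 at 5 µM (adjusted p = 0.0733) and rose by 0.75 ± 0.16 at 10 µM (adjusted p = 0.00461). Without 10 µM replicate 1 the counts were 12 and 9 upward, beside 16.5% and 23.0% of all genes tested in that fit. In that fit the changes at 10 µM were smaller for HLA-DPA1 (0.17, against 0.41 with all libraries) and CD74 (0.02, against 0.17), and HLA-DPB1 turned from 0.01 to -0.13 without passing in either fit. The 6 immune markers summed to between 0.185 and 0.765 CPM in DMSO, between 0.351 and 0.852 CPM at 5 µM, and between 0.774 and 2.97 CPM at 10 µM, with the highest sum in that same library. Of the 2 that could be tested, ITGAM passed upward at 10 µM (3.31 ± 1.06, adjusted p = 0.0352), and without that library it did not (2.06 ± 1.07, adjusted p = 0.127). CD3E was at 0 in all libraries and PTPRC was at 26 expected counts or fewer, and the part of these markers in the class II values was not tested. The difference between the class I and class II lists was not tested.

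**Figure D4:**
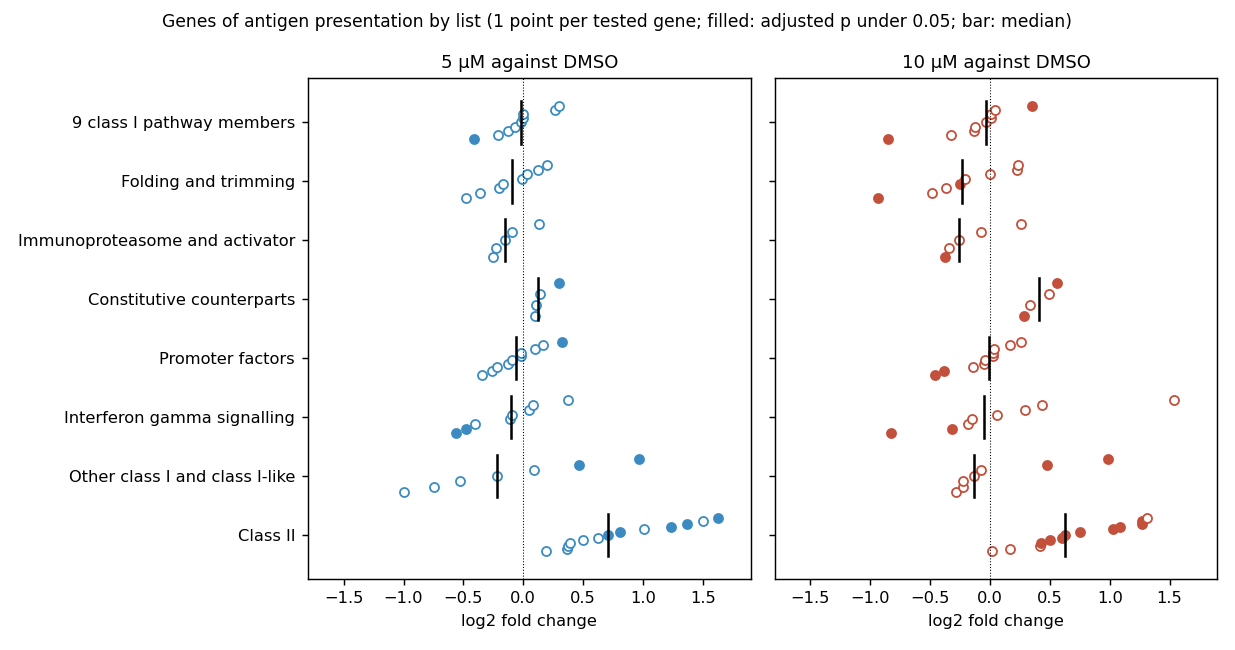
Log2 fold change of every tested gene in 8 lists of antigen presentation genes, at 5 µM against DMSO (left) and 10 µM against DMSO (right). Each point is a gene, filled points passed at an adjusted p under 0.05, and the bar is the list median, which is -0.02 and -0.03 for the 9 class I pathway genes and 0.71 and 0.63 for the class II list.

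The genes most like TAPBP over the 9 libraries, by Pearson correlation of log2 CPM, were SREBF1, the sterol-regulated transcription factor (r = 0.996), SCARA3 (r = 0.995) and SORCS1 (r = 0.995). SREBF1 went from 161.8 ± 3.70 CPM in DMSO to 93.1 ± 2.40 at 5 µM and 55.3 ± 2.71 at 10 µM. For TAP1 the nearest were GLTP (r = 0.985), USB1 (r = 0.980) and MEPCE (r = 0.978), which at 10 µM measured 0.46, 0.40 and 0.25 on the log2 scale against DMSO. These correlations are over 9 libraries in 3 dose groups that share their scaling, and they only describe which profiles look alike.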

How the data were processed

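RNA from A375 cells (24 h in DMSO or in TP-472 at 5 or 10 µM, 3 libraries each) was sequenced by the authors. The expected counts they deposited, 1 row for each gene symbol, were made per the submitters' processing notes with Bowtie2 2.1.0 and RSEM 1.2.15 on hg38. RSEM divides reads that match several genes. Per the labels, mRNA was selected with oligo-dT and libraries were strand-specific, whereas the series design names ribosomal RNA depletion; the sources could not be reconciled. All 9 columns matched sample titles or descriptions and were used.

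Expected counts were rounded and tested in edgeR 4.0.16 (R 4.3.3; filterByExpr, TMM factors, quasi-likelihood F test, Benjamini-Hochberg over 16417 genes), with one fit of all libraries and 3 contrasts. The study's methods name a t-test for experiments in general and none specific to sequencing counts. Standard errors were the log2 fold change divided by the root of F. CPM per kb used the length of the GENCODE 29 principal transcript. Scripts were tested on simulated counts. Totals of 42483091 to 51298130 counts per library set the precision, and PCR duplicates could not be removed, so counts are not independent molecules. The replicate numbers showed no visible pairing of libraries: correlations of same-numbered deviations were -0.05 to 0.03. Such values cannot tell whether same-numbered libraries were prepared together.

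The members and lists were chosen with earlier results of these data known. All 9 members are named, and in other lists up to 4 genes with the smallest p at 10 µM against DMSO (all where 5 or fewer were tested); RFX5, RFXAP, IRF1, JAK2, HLA-DPA1, HLA-DPB1, CD74, HLA-G, HLA-J, FCGRT and the marker genes were named after their values were seen, and genes most like TAP1 and TAPBP were the 3 with the highest r. Alternatives were other scaling factors, filters, tests and sample sets, DESeq2 1.42.0, limma 3.58.1, a replicate block and leaving out each library. Removal of length and GC trends (15323 genes) and of ribosomal RNA genes was added after the data were seen.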

Additional observations from a re-analysis of the deposited data

How the results depend on the processing

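TAPBP passed in all 19 alternatives against DMSO at both doses, and in 18 of 19 between the doses; with only these 2 groups fitted it did not (-0.43, adjusted p = 0.0603). TAP1 passed in 17 of 19 at 10 µM and 6 of 19 at 5 µM. Members passing upward at 5 µM were 1 with a 1 CPM filter, with DESeq2, with 2 groups only and with length and GC removed. Downward at 5 µM with 2 groups only, 3 passed: TAPBP, B2M (-0.21 ± 0.03, edgeR adjusted p = 6.84e-05) and HLA-E (-0.13 ± 0.05, adjusted p = 0.0498). With length and GC removed 2 passed downward at 10 µM, TAPBP and B2M, as did 2995 of 15323 genes. Between the doses 0 passed downward with 2 groups only. All genes called at 5 µM were 722 higher and 954 lower in the main fit, and 809 higher with the 1 CPM filter. They were 1213 higher and 1463 lower with DESeq2, 3051 and 3280 with 2 groups only, and 1430 and 1586 with length and GC removed. Between the doses they were 1080 and 1382 with DESeq2, 114 and 221 with 2 groups only, 1041 higher with length and GC removed and 301 higher with the replicate block. The replicate block, for numbers that showed no visible pairing, changed no member's call.

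Leaving out each library in turn gave 263 to 2770 genes higher and 410 to 2951 lower at 5 µM, 1645 to 3854 and 2127 to 4316 at 10 µM, and 146 to 1474 and 388 to 2576 between the doses. Members passing were 0 to 1 upward and 1 to 2 downward at 5 µM, 0 to 1 and 1 to 3 at 10 µM, and 1 to 2 downward between the doses. The highest downward counts came without 10 µM replicate 1, when 17.6%, 25.8% and 15.4% of genes tested passed downward in the 3 comparisons. Ranges that crossed 0 were, at 5 µM, HLA-C -0.061 to 0.0077, TAP2 -0.013 to 0.012 and NLRC5 -0.056 to 0.043; at 10 µM, HLA-B -0.27 to 0.072, HLA-C -0.10 to 0.13, HLA-E -0.11 to 0.067 and HLA-F -0.19 to 0.19; between the doses, HLA-B -0.20 to 0.14, HLA-C -0.081 to 0.15, B2M -0.072 to 0.15 and TAP1 -0.0041 to 0.12. The heavy chain sum ranged from -0.10 to -0.06, -0.16 to 0.07 and -0.09 to 0.14 in the 3 comparisons.

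Other sign changes were all in values that did not pass. TAP2 at 5 µM was -0.0018 with DESeq2-type factors, -0.0044 without a filter, -9.8e-05 with the replicate block, -0.0018 with DESeq2, -3.55e-05 with limma-voom and -0.0021 without ribosomal RNA genes. NLRC5 at 5 µM was 0.0074 with upper-quartile factors, 0.0022 with the 1 CPM filter, 0.0027 with the replicate block and 0.0427 with length and GC removed. At 10 µM, HLA-B was 0.0109 with upper-quartile factors, HLA-E -0.0038 without a filter, HLA-C -0.0205 with length and GC removed, and HLA-F -0.0056 without a filter, -0.0323 with the block, -0.0128 with limma-voom and -0.0333 with length and GC removed. Between the doses, length and GC removal gave HLA-B -0.0503, HLA-C -0.0025 and B2M -0.0165. The cause was not tested. With 3 libraries a group, the lower ends of the 95% intervals at 10 µM reached -0.36 for HLA-B, -0.54 for HLA-F and -0.75 for NLRC5.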

Other observations

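Outside the classical pathway, 7 further class I and class I-like genes were tested, and 2 of them passed, both upward at both doses, with none downward, beside 4.40% and 16.4% of all tested genes higher. MR1, which presents vitamin B metabolites to mucosal-associated T cells, measured 11.7, 11.8 and 11.7 CPM in DMSO, 18.2, 13.8 and 16.6 CPM at 5 µM, and 16.5, 15.8 and 16.6 CPM at 10 µM. It rose by 0.47 ± 0.11 and 0.48 ± 0.11 on the log2 scale (edgeR, adjusted p = 0.0245 and 0.00780). CD1D, which presents lipids to natural killer T cells, measured 1.75, 2.02 and 1.73 CPM in DMSO, 4.27, 3.14 and 3.35 CPM at 5 µM, and 4.42, 3.29 and 3.20 CPM at 10 µM. It rose by 0.97 ± 0.21 and 0.99 ± 0.21 (adjusted p = 0.0196 and 0.00588). For both genes every treated library lay above every DMSO library, as for 23.7% of all tested genes at 5 µM and 23.4% at 10 µM, and both passed at 10 µM without replicate 1 (0.46 and 0.82, adjusted p = 0.00229 and 0.00714). The other 5 were HLA-G, the pseudogenes HLA-H, HLA-J and HLA-L, and FCGRT. HLA-G stayed at 16.2 expected counts or fewer in every library. HLA-H measured 4.35 ± 0.470 CPM in DMSO and 3.97 ± 0.820 CPM at 10 µM (SD, n = 3), and shares sequence with other class I genes, so its counts are uncertain.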
